A study of Mus musculus with 21 samples.

Results

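Adipocytes exposed to a glucocorticoid for 6 d were compared with adipocytes exposed to it for 2 h, and genes were sought whose change from untreated cells had opposite signs at these times. The comparison used every array labelled as dexamethasone (Dex) for 6 d, 3 in number, and every array labelled as Dex for 2 h, also 3, which together make 6 of the 21 arrays of the series. The cells were 3T3-L1, an established mouse preadipocyte line, differentiated to adipocytes over 14 days and held in culture. Dex, a synthetic glucocorticoid, was given at 20 nM in 3 groups, begun 2 h, 24 h or 6 d before all cells were harvested. A control group was labelled 0 h, with no agent named, and its 3 arrays set the sign of each change. Other cells received TNF, tumour necrosis factor alpha, a cytokine of inflammation, for the same times, and the 6 arrays of TNF at 2 h and 6 d served to ask whether the change over time differed between the agents. The TNF dose, the vehicle and the handling of the medium over 6 d are not given in the sources used here. The labels call the replicates biological and do not say what separated them, so p-values measure the spread between these samples of 1 cell line. The series set out to follow gene expression while adipocytes become resistant to insulin under each agent.

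Glucocorticoids act through the glucocorticoid receptor, Nr3c1, a transcription factor that moves to the nucleus when it binds hormone and raises or lowers the transcription of its target genes. In fat cells, a short exposure induces such targets as Fkbp5, Tsc22d3 and Per1, and a long exposure is known to alter insulin action, lipid storage and the extracellular matrix. Glucocorticoids also promote the conversion of preadipocytes to adipocytes, and Dex is commonly part of the mixture that starts this conversion in 3T3-L1 cells.

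Expression was read on Affymetrix arrays as log2 levels of 45101 probe sets, of which 1 per gene was kept for 18194 genes. A gene entered the test when at least 3 of the 12 control and Dex arrays lay above 5.34, the median of all deposited values. That left 11777 genes. Levels below 5.34 were read as near background, where a change may be larger than the arrays could show. All 7 measured adipocyte markers lay above this value in every group, and their mean level on an array was 13.46 to 13.55 at 2 h of Dex and 13.28 to 13.44 at 6 d. Of 5 leukocyte markers, 4 lay below it in every group, and so did 3 of 4 endothelial and 2 of 4 muscle markers. Dex 6 d replicate 2 had a larger signal difference between the 3′ and 5′ control probe sets of Actb and Gapdh, 0.777, than the other 11 control and Dex arrays, 0.021 to 0.283. Among the TNF arrays, TNF 6 d replicate 2 stood further apart, at 2.00. TNF 2 h replicate 2, at 0.736, and TNF 24 h replicate 3, at 0.683, were near Dex 6 d replicate 2. A gene was called when limma's two-sided p, adjusted by the method of Benjamini and Hochberg over all genes tested, was below 0.05. With 3 arrays in each group, 0.1 is the smallest two-sided p of an exact permutation test, which was therefore not used for calls.

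Between 2 h and 6 d of Dex, the ribonuclease gene Ang3 rose most and the carbonic anhydrase gene Car3, abundant in fat cells, fell most. In all, 3597 genes were called, 30.5% of those tested. Of these, 1511 genes (12.8%) were higher at 6 d and 2086 (17.7%) were lower. Among genes that were called and differed at least 2-fold, 173 (1.47%) were higher and 401 (3.4%) were lower. The 3 arrays of one time lay wholly above those of the other for 2393 genes (20.3%) that were higher at 6 d and 2772 (23.5%) that were lower.

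Ang3 measured 4.96, 4.92 and 4.96 at 2 h and 11.34, 11.68 and 10.73 at 6 d. All 2 h arrays were near background and all 6 d arrays were bright, a rise of 6.30 ± 0.23 on the log2 scale (SE, 3 arrays a group, limma adjusted p = 8.36e-10). Ang4, a gene of the same family, rose by 3.71 from a 2 h level near background, and such close copies can share signal on an array. Cyp2e1, a cytochrome P450 enzyme best known from liver, measured 7.58, 7.61 and 7.85 at 2 h and 11.87, 11.70 and 12.02 at 6 d. Its groups did not overlap, and the rise was 4.18 ± 0.16 (adjusted p = 8.36e-10). Apoc3, an apolipoprotein that slows the clearance of triglyceride-rich particles, measured 8.75, 8.56 and 8.83 at 2 h and 12.82, 12.53 and 12.76 at 6 d. It rose by 3.99 ± 0.20 (adjusted p = 6.78e-09), with no overlap between the groups. Depp1, a target of FOXO transcription factors, rose by 4.06, and its control arrays, 7.47, 7.48 and 7.45, lay above its 2 h arrays, 6.76, 6.89 and 7.39. Cpm, a carboxypeptidase of the cell surface, and Fam107a, an actin-binding protein, were already above control at 2 h and rose further. Cpm measured 3.80, 4.09 and 3.82 in control, 7.48, 6.93 and 6.42 at 2 h and 10.56, 10.78 and 10.00 at 6 d. Fam107a measured 6.19, 6.74 and 5.84 in control, 9.86, 9.64 and 9.68 at 2 h and 12.77, 12.75 and 12.97 at 6 d. The remaining genes among the 15 highest were the chemokine Ccl6 (3.48), the bone matrix protein Ibsp (3.20), the eosinophil ribonuclease family gene Ear3 (2.96), Id3 (2.92), the folate hydrolase Folh1 (2.86), Clca3a1 (2.77), the plasma protein Itih4 (2.76) and the intermediate filament protein Synm (2.71). Of these, Ibsp and Synm were near background at 2 h.

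Car3 measured 14.13, 14.10 and 14.37 at 2 h and 8.12, 8.42 and 9.36 at 6 d. Every 6 d array lay far below every 2 h array, and Car3 fell by 5.57 ± 0.26 (47.4-fold, limma adjusted p = 3.72e-09). Its 2 h arrays overlapped those of control, where it measured 14.18, 14.24 and 14.49. Lum, a proteoglycan that binds collagen fibrils, measured 11.24, 11.16 and 12.31 at 2 h and 6.36, 7.10 and 7.76 at 6 d, a fall of 4.50 ± 0.36 (adjusted p = 4.71e-07) with no overlap. Ccl11, the eosinophil chemokine eotaxin, measured 8.32, 8.02 and 8.93 at 2 h and 4.65, 3.92 and 4.04 at 6 d, the last all near background, and the fitted change of Ccl11 was -4.22. Pmepa1 and Tgfbi, both known as genes induced by TGF-beta, changed by -3.50 and -3.31. Inhbb, which encodes a subunit of activin B, was below control already at 2 h and fell again. It measured 9.87, 9.80 and 10.19 in control, 8.09, 7.96 and 8.06 at 2 h and 4.67, 5.16 and 4.89 at 6 d, near background. Bdnf, a neurotrophin gene, had risen at 2 h but was not called against control at 6 d. Its arrays read 6.06, 6.52 and 5.92 in control, 9.54, 9.34 and 9.31 at 2 h and 6.44, 6.10 and 6.44 at 6 d, so the control and 6 d arrays overlapped. The other genes among the 15 lowest were Plod2 (-3.71), Sema3g (-3.65), Cox7a1 (-3.32), Ces1f (-3.29), Pla2g2e (-3.25), Col8a1 (-3.24), Tiparp (-3.09) and Tm7sf2 (-3.08). Of these, Sema3g was near background at 6 d.

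**Figure D1:**
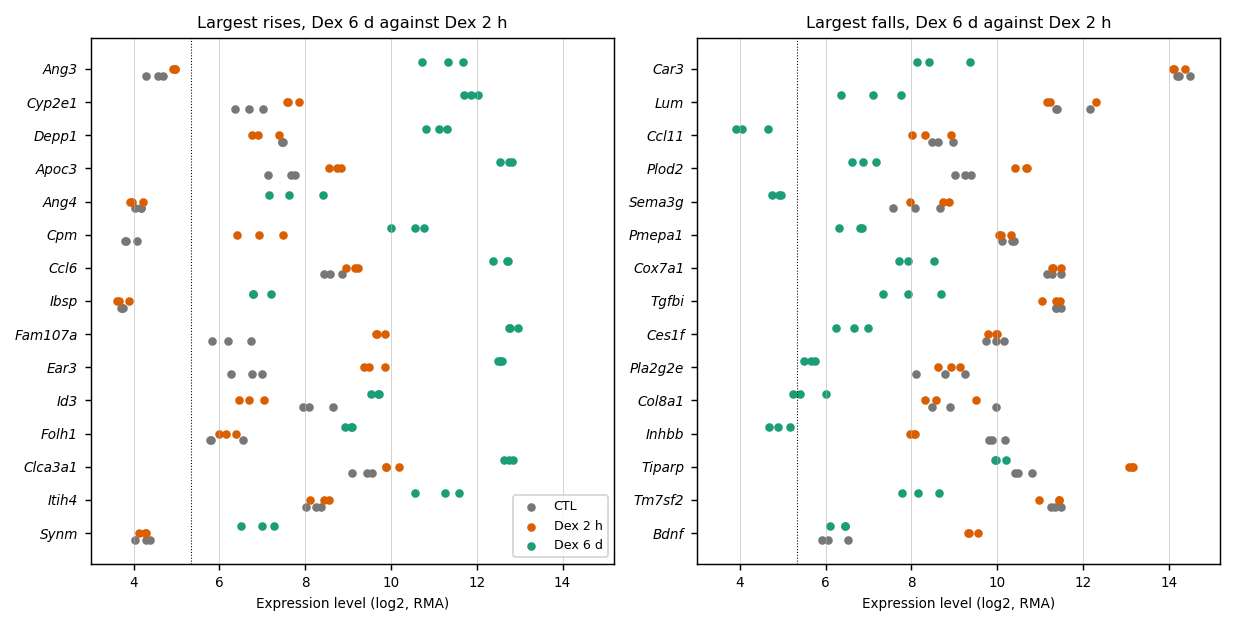
Log2 level of the 15 genes that rose most and the 15 that fell most from 2 h to 6 d of Dex, 1 dot per array for control, Dex 2 h and Dex 6 d; the dotted line marks 5.34. The 6 d arrays lie clear of the 2 h arrays for each of these genes, as the rule for naming them required, from Ang3 (6.30) to Car3 (-5.57).

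A smaller set of genes was on opposite sides of the control at the 2 times. A gene was counted as reversed when it was called in Dex 2 h against control and in Dex 6 d against control with opposite signs. Against control, 1021 genes (8.67%) were called at 2 h, 611 higher (5.19%) and 410 lower (3.48%). At 6 d 3489 (29.6%) were called, 1564 higher (13.3%) and 1925 lower (16.3%). In all, 82 genes (0.696% of those tested) were reversed. Of these, 36 genes (0.306%) were below control at 2 h and above it at 6 d, among them the transcriptional regulators Id3 and Ppargc1b, and 46 (0.391%) were above at 2 h and below at 6 d, among them Plod2, Snai2 and Ddit4. Both comparisons use the same control arrays. Without control replicate 1 the count was 52, and without control replicate 2 it was 53. Each of the 12 arrays was left out in turn, and 35 of the 82 genes were reversed in every such fit. Over 25 alternative fits, which include these 12 and the fit of all 21 arrays, 10 genes were reversed in every fit. The genes nearest the threshold were Tfap4 (adjusted p = 0.0493), Xbp1 (0.0483) and Il15ra (0.0479) inside it and Fhod1 (0.0528), Zcchc2 (0.0552) and Plscr4 (0.058) outside it, each with the larger of its adjusted p-values.

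The reversed genes were also read at 24 h. The definition did not use the 24 h means, but the 24 h arrays entered the spread and the brightness filter. With these arrays left out of the fit, 61 genes were reversed. The 24 h mean lay between the 2 h and 6 d means for 32 of the 36 genes that were below and then above control. For 32 of the 36 it was on the 6 d side of the control mean, the exceptions being Clcf1, Ier5, Cish and Ajuba. Sides were read from the means alone in both directions, whether or not a gene was called at 24 h. Jade2 (0.72, limma adjusted p = 6.06e-05) was called above control at 24 h. Zfp36l2 (0.01, adjusted p = 0.957), Slc25a22 (0.03, adjusted p = 0.858) and Bahcc1 (0.06, adjusted p = 0.805) were not called. Among the 46 genes that were above and then below control, the 24 h mean lay between the others for 43 and was below control for 36. The 24 h means of Ddit4, Fst, Pfkfb3, Tle3, S100a8, Orm1, Orm2, Snapc3 and Il15ra were still above the control mean. That of Pwwp3b was the same as in control, 7.02. At 24 h Fst (0.41, limma adjusted p = 0.0487) and Pfkfb3 (0.60, adjusted p = 0.0047) were called higher than control. Ddit4 (0.19), Tle3 (0.04), S100a8 (0.50), Orm1 (0.24) and Orm2 (0.37) were not called. The 24 h values have the same control arrays as the others. By definition the 2 h and 6 d means lie on opposite sides of control, so a 24 h mean near control falls between them. The counts of means in between are therefore largely set by the choice of genes. Of the 82 genes, Id3, Plod2 and Snai2 differed at least 2-fold from control at both times.

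**Figure D2:**
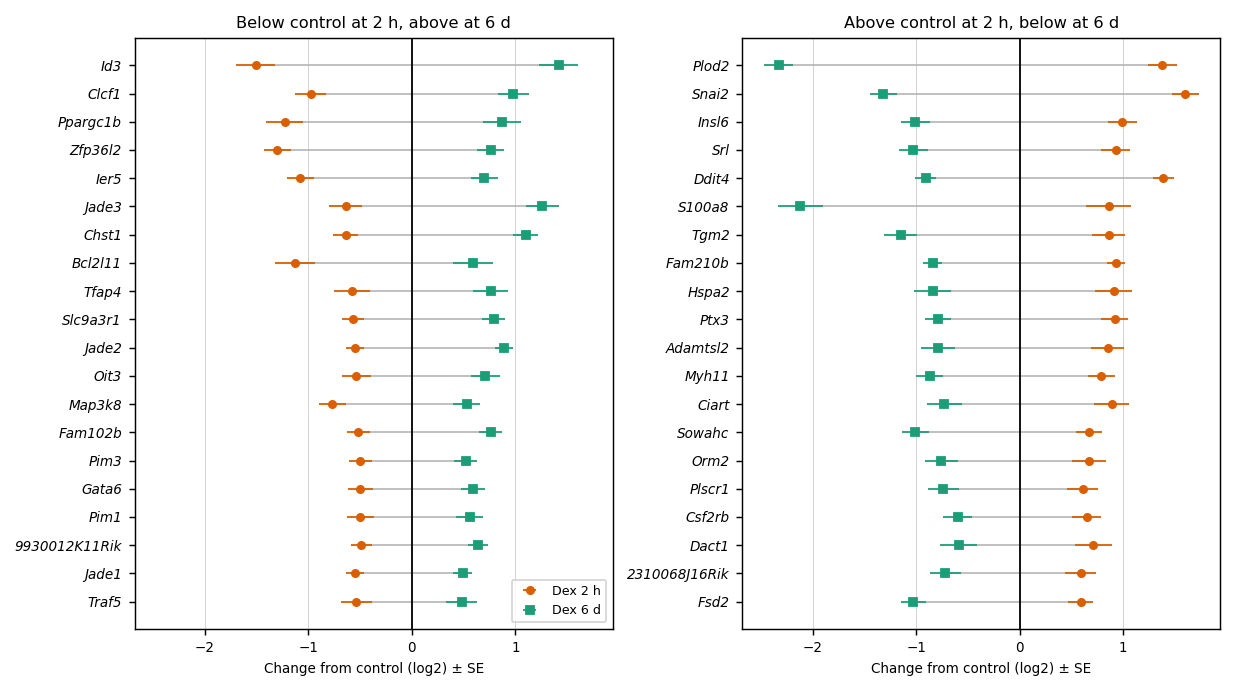
Log2 change from control, with its SE, at 2 h (circles) and 6 d (squares) of Dex for 20 reversed genes in each direction. The circles and squares lie on opposite sides of 0 by definition, with the widest gap for Plod2 (1.38 at 2 h and -2.33 at 6 d).

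Among the genes that were below and then above control, Id3 encodes a helix-loop-helix protein that blocks DNA binding by its partners and is a known target of BMP signalling. It measured 8.08, 8.66 and 7.96 in control, 6.45, 6.70 and 7.03 at 2 h, 8.84, 8.88 and 8.42 at 24 h and 9.69, 9.53 and 9.72 at 6 d. All 2 h arrays lay below and all 6 d arrays above the control range, with changes of -1.51 and 1.42. From 2 h to 6 d Id3 rose by 2.92 ± 0.19, or 7.58-fold (limma adjusted p = 6.22e-08). Ppargc1b encodes a coactivator that promotes mitochondrial gene expression. Its arrays read 9.98, 10.15 and 9.57 in control, 8.81, 8.25 and 8.96 at 2 h, 10.52, 10.57 and 10.17 at 24 h and 10.72, 10.89 and 10.71 at 6 d. The 3 groups of control, 2 h and 6 d did not overlap, and the changes from control were -1.23 and 0.87.

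Zfp36l2 encodes a protein that binds AU-rich elements and speeds the decay of mRNA. It measured 11.27, 11.21 and 11.60 in control, 9.93, 10.21 and 10.03 at 2 h and 12.06, 12.37 and 11.94 at 6 d, with changes of -1.30 and 0.76. Its other probe sets, at -0.16 and 0.01 and at -0.12 and 0.03, showed no change of that size. Ier5, an immediate early gene, read 7.42, 7.51 and 7.46 in control, 6.38, 6.59 and 6.19 at 2 h, 7.21, 7.28 and 7.20 at 24 h and 8.24, 8.35 and 7.92 at 6 d. The 24 h arrays of Ier5 were still below every control array, while those of 6 d were above.

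Clcf1, a cytokine of the interleukin-6 family that signals through JAK kinases and STAT3, measured 6.55, 6.46 and 6.42 in control, 5.47, 5.63 and 5.39 at 2 h, 6.34, 6.54 and 6.24 at 24 h and 7.61, 7.67 and 7.07 at 6 d. Its groups of control, 2 h and 6 d did not overlap, and the changes from control were -0.98 and 0.98. A second Clcf1 probe set gave -0.64 and 0.56, and another gave -0.20 and 0.02. Also in this direction were the kinases Pim1 (-0.50 and 0.56) and Pim3 (-0.50 and 0.52) and Cish (-0.58 and 0.46), a feedback inhibitor of cytokine signalling, all known to be induced by STAT factors. Pim1 was reversed in 7, Pim3 in 11 and Cish in 10 of the 12 fits that left out an array. Socs3, another feedback inhibitor of the same route, was called at 2 h (-1.01) and stood at 0.20 against control at 6 d (adjusted p = 0.471), so it was not among the reversed genes. At 24 h Clcf1 stood at -0.10 against control, Pim1 at 0.63, Pim3 at 0.52 and Cish at -0.57. A link between Clcf1 and these genes was not tested.

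All 3 genes of the Jade family, which encode scaffold proteins of a histone acetyltransferase complex, were below control at 2 h and above it at 6 d. Jade2 measured 9.35, 9.49 and 9.26 in control, 8.82, 8.84 and 8.81 at 2 h, 10.08, 10.09 and 10.10 at 24 h and 10.25, 10.39 and 10.14 at 6 d. The Jade2 groups of control, 2 h and 6 d did not overlap, and the arrays within a time were close to each other. A second Jade2 probe set went the other way, at 0.04 and -0.19. Jade1 changed by -0.55 and 0.49, and its 3 other probe sets had the same signs, at -0.58 and 0.45, -0.71 and 0.70, and -0.67 and 0.56. Jade3 changed by -0.64 and 1.26 and was reversed in 9 of the 12 fits that left out an array. Bcl2l11, a death-promoting member of the BCL2 family and a known glucocorticoid target in lymphocytes, changed by -1.13 and 0.59, and it too was reversed in 9 of the 12. Map3k8, a kinase upstream of the ERK pathway, changed by -0.77 and 0.53 with 2 h arrays of 4.89, 4.67 and 4.78, near background. Nrip1, a corepressor that nuclear receptors recruit, changed by -1.09 and 0.38, and 1 of its 6 d arrays lay within the control range.

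Among the genes that were above and then below control, Plod2 showed the widest swing. Plod2 encodes a lysyl hydroxylase that prepares collagen for stable cross-linking. It measured 9.02, 9.38 and 9.25 in control, 10.69, 10.42 and 10.68 at 2 h, 8.02, 8.00 and 8.10 at 24 h and 6.61, 7.18 and 6.88 at 6 d. No array of one of these groups overlapped another group, and from 2 h to 6 d Plod2 fell by 3.71 ± 0.14 (limma adjusted p = 8.36e-10). A second Plod2 probe set changed from control by 1.58 and -2.41. Snai2 encodes a zinc finger repressor known from the transition of epithelial to mesenchymal cells. It read 9.54, 9.70 and 9.54 in control, 11.30, 11.05 and 11.24 at 2 h, 8.82, 8.82 and 8.63 at 24 h and 7.98, 8.53 and 8.30 at 6 d. Snai2 fell by 2.92 ± 0.13 between the times (adjusted p = 2.58e-09), its groups did not overlap, and a second probe set gave 1.55 and -0.86 against control.

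Ddit4 encodes an inhibitor of the growth kinase mTORC1 and is a known direct glucocorticoid target. It measured 11.50, 11.56 and 11.53 in control, 12.92, 12.86 and 12.96 at 2 h, 11.88, 11.84 and 11.44 at 24 h and 10.75, 10.51 and 10.58 at 6 d. Its replicates lay close together, and Ddit4 fell by 2.30 ± 0.10 from 2 h to 6 d. Tiparp encodes an ADP-ribosyltransferase that restrains the aryl hydrocarbon receptor. Its arrays read 10.41, 10.48 and 10.80 in control, 13.08, 13.17 and 13.13 at 2 h, 10.27, 10.41 and 10.37 at 24 h and 9.98, 10.20 and 9.94 at 6 d. Most of the Tiparp swing was the rise at 2 h (2.56), and the shortfall at 6 d was 0.52. Tgm2, a transglutaminase that cross-links proteins, changed from control by 0.86 and -1.15, and the 4 of its 5 other probe sets that passed the filter had the same signs. Ciart, a repressor in the circadian clock, measured 6.59, 6.65 and 6.03 in control, 7.44, 7.33 and 7.16 at 2 h and 5.77, 5.40 and 5.92 at 6 d, close to background at 6 d.

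Of 19 acute phase and complement genes tested, Ptx3 (0.92 and -0.79), Orm1 (0.56 and -0.58) and Orm2 (0.67 and -0.76) were reversed. Orm1 and Orm2 are close copies, so their probe sets may read each other. The 24 h arrays of Orm1, 13.22, 13.28 and 12.89, overlapped those of control, 13.04, 13.04 and 12.58. S100a8, a calcium-binding protein of inflamed tissue, changed by 0.86 and -2.12, with 6 d arrays of 4.45, 5.12 and 5.18 near background, and was reversed in 7 of the 12 fits that left out an array. Signalling genes in this direction included the activin antagonist Fst, whose arrays read 8.70, 9.08 and 8.93 in control, 10.31, 10.37 and 10.54 at 2 h and 8.32, 8.25 and 8.67 at 6 d, the TGF-beta effector Smad3 (0.48 and -0.92), the growth factor receptor Fgfr1 (0.55 and -0.70) and its ligand Fgf2 (0.55 and -0.49), the last reversed in 1 of the 12. A second Smad3 probe set gave -0.13 and -0.09 and does not share the pattern. Metabolic genes included Pfkfb3 (0.50 and -0.64) and Pfkfb4 (0.46 and -0.94), which set the level of a glycolysis activator, and the phosphatidate phosphatase Lpin2 (0.53 and -0.70). Across the reversed genes, 45 had further probe sets. Of these, 69 probe sets of 37 genes passed the filter, and 54 of the 69 had the same pair of signs. Signs were counted at any size and not called, so the 54 include the small values of Zfp36l2 given above. None of the further probe sets of Etnk1 and Ctdsp2 that passed had the same pair of signs.

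**Figure D3:**
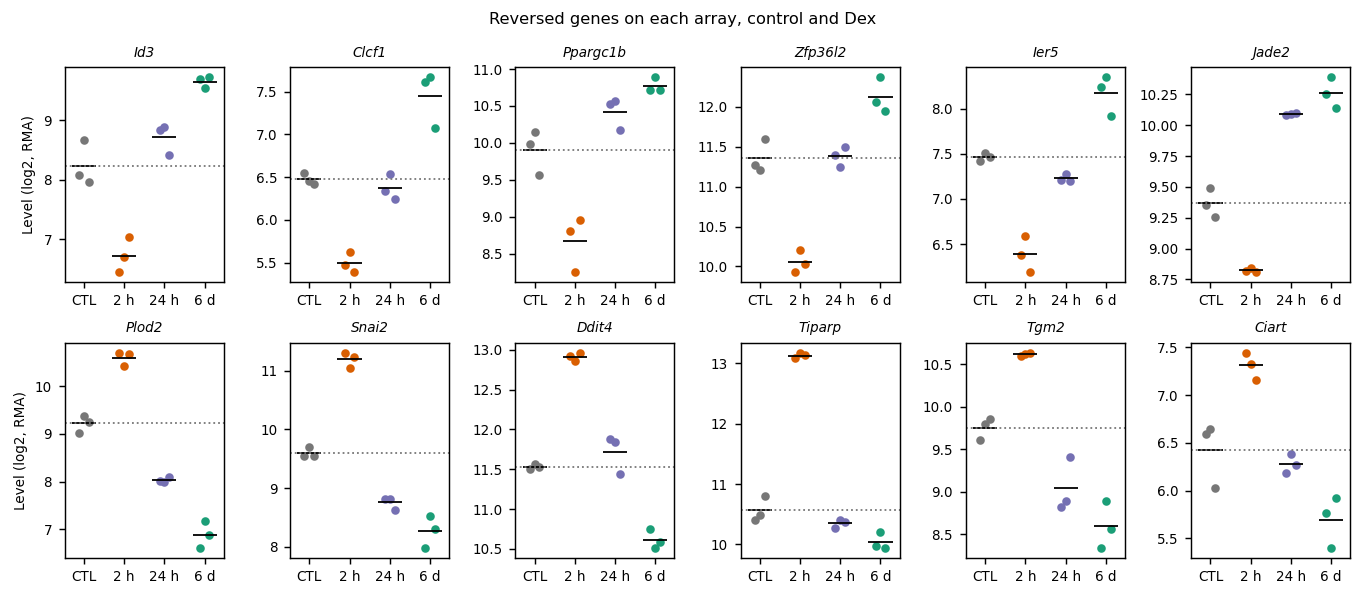
Log2 level on each array in control and after 2 h, 24 h and 6 d of Dex for 12 reversed genes; bars are group means and the dotted line is the control mean. In Id3 the 6 d arrays (9.69, 9.53 and 9.72) lie above and the 2 h arrays below every control array, and in Plod2 the order is turned.

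Promoter sequences were read for the reversed genes. Within each direction these genes share their signs by definition, so their common timing is not a separate result. Shared regulation was not tested. RefSeq promoters on GRCm38.p6 were found for 57 of the 82 genes, 26 that were below and then above control and 31 that were above and then below. The 250 bases before the start were searched on both strands for a glucocorticoid response element (GNACA, any 3 bases and TGTNC), an E-box (CACGTG), the core bound by hypoxia-inducible factors (ACGTG, which also lies inside CACGTG) and a sterol regulatory element (TCACNCCAC). The promoters of Id3, Ciart and Ddit4 are shown as the gene with the largest rise among the reversed genes, a clock gene with 3 E-boxes and a known glucocorticoid target. Capitals mark CACGTG in Ciart and ACGTG in Ddit4, and Id3 held none of the 4 motifs. They lie at chr4:136143572-136143821 on the + strand (Id3), chr3:95882229-95882478 on the - strand (Ciart) and chr10:59951771-59952020 on the - strand (Ddit4), and each is printed 5′ to 3′ toward the gene.
Id3: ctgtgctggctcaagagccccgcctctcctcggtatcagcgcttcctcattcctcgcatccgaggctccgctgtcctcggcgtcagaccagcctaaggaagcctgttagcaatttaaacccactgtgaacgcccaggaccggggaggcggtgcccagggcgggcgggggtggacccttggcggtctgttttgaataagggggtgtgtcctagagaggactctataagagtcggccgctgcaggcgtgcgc
Ciart: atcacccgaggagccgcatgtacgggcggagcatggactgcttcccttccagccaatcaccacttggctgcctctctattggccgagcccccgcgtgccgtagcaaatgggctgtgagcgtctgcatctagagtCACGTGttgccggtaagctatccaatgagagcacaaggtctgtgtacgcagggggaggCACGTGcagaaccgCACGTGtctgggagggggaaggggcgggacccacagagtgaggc
Ddit4: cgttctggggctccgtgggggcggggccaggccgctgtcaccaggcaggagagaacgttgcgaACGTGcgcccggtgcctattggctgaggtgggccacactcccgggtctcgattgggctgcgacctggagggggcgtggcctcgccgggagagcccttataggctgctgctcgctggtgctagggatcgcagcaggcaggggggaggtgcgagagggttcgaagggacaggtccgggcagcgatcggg

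The glucocorticoid response element was in 0.387% of all 32851 promoters of the table and in 0 of 26 and 0 of 31 promoters of the reversed genes. CACGTG was in 6.02% of all promoters and 9.93% of those of tested genes. It was in 2 of 26 promoters (7.69%) of genes that were below and then above control, Jade1 and Pim1. It was in 4 of 31 (12.9%) in the other direction, namely Ciart, Lpin2, Pfkfb3 and Tle3. ACGTG was in 16.6% of all promoters and 24.9% of those of tested genes, against 3 of 26 (11.5%) and 9 of 31 (29.0%). A match describes the letters in this window and not a site of binding.

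Cholesterol synthesis genes were lower at 6 d than at 2 h without exception. Of 20 tested, 20 were called lower and 0 higher, with a median change of -1.54. Over all genes tested 12.8% were called higher and 17.7% lower, with a median of 0.01, and these shares stand beside every list below. Tm7sf2, a sterol reductase, measured 11.43, 11.43 and 10.97 at 2 h, 10.32, 10.37 and 10.34 at 24 h and 8.15, 8.64 and 7.79 at 6 d. Fdps, which makes farnesyl diphosphate, measured 13.48, 13.40 and 13.19 at 2 h, 13.17, 13.14 and 13.12 at 24 h and 11.78, 11.44 and 11.53 at 6 d. In both genes every 6 d array lay below every 24 h array, with changes from 2 h of -3.08 ± 0.18 and -1.78 ± 0.09. Hsd17b7 fell by 2.60, Mvd by 1.85 and Fdft1, the squalene synthase, by 1.73. The smallest change was that of Srebf2, which encodes the sterol-sensing transcription factor of the pathway, at -0.46 (adjusted p = 0.0224). At 2 h, 2 of the 20 genes were called against control, both lower, with a median of -0.19. The sterol regulatory element was in 1.05% of all promoters and in 1 of the 16 promoters of these genes that were found (6.25%), that of Hmgcs1, which fell by 1.32.

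Extracellular matrix genes were mostly lower at 6 d. Of 52 tested, 33 were called lower and 4 higher, with a median of -0.75. Col1a1, the main fibrillar collagen chain, measured 10.03, 9.96 and 10.21 at 2 h and 7.30, 8.22 and 8.09 at 6 d, with no overlap and a fall of 2.19 ± 0.22 (limma adjusted p = 4.84e-06). Fmod, a proteoglycan of collagen fibrils, fell by 2.51, beside Lum, Plod2 and Col8a1 above. At 2 h, 2 matrix genes were called higher than control and 1 lower, with a median of -0.04. Matrix proteases and their inhibitors had 10 of 23 members called lower and 0 higher. Among them, Timp3, an inhibitor of metalloproteinases, fell by 2.31 to 6 d arrays of 5.33, 5.22 and 4.98.

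Of 20 markers of preadipocytes and fibroblasts tested, 9 were called lower and 3 higher, with a median of -0.28. Thy1, a fibroblast surface antigen, fell by 1.08, Pdgfrb, a growth factor receptor, by 0.94 and Dlk1, a preadipocyte protein that restrains differentiation, by 0.83. In the other direction, Pdgfra, a receptor of adipocyte progenitors, rose by 0.45 from 11.23, 11.07 and 11.47 to 11.49, 11.78 and 11.85, without overlap. Sox9 and Vim also rose, by 0.36 and 0.24, and Acta2 stood at 0.14 and was not called. The mean level of the 6 measured preadipocyte or fibroblast markers was 8.76 to 8.93 on the 2 h arrays, 8.34 to 8.54 on the 6 d arrays and 8.88 to 9.07 on the control arrays. In RNA from whole cultures, fewer cells of a type and less RNA per cell cannot be told apart. The part of these cells in the matrix result was not tested.

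Genes of glycolysis and pyruvate use had 19 of 30 members called lower and 5 higher, with a median of -0.48. Ldha, lactate dehydrogenase, measured 13.71, 13.67 and 13.46 at 2 h and 12.46, 12.27 and 12.59 at 6 d, a fall of 1.17 ± 0.08 with no overlap. Pfkl, a phosphofructokinase, fell by 1.90, Pdk1, which restrains pyruvate dehydrogenase, by 1.40 and Pfkfb4 by 1.39. Pck1, which feeds glycerol synthesis in fat cells, fell by 1.42 from a 2 h level that was itself below control. Fatty acid and triglyceride synthesis genes had 18 of 32 members lower and 5 higher (median -0.32). The desaturase Fads2 fell by 2.07, Acss2 by 1.60 and the elongase Elovl6 by 1.59, while Lpin3 rose by 1.07.

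Adipocyte identity genes had 18 of 32 members called lower and 4 higher, with a median of -0.26. Besides Car3, Apoe fell by 1.84, to near background, and Sncg by 1.35. The 6 d arrays of Sncg read 8.83, 7.80 and 9.25, replicate 2 being the lowest. Pparg, the master regulator of adipogenesis, stood at -0.02 and was not called. Cebpa, its partner, rose by 1.04. The 2 h arrays of Cebpa (8.97, 8.62 and 8.62) lay below those of control (10.12, 9.96 and 9.60), and its 6 d arrays (9.80, 9.69 and 9.84) overlapped them. Slc2a4, the insulin-responsive glucose transporter, fell by 0.73 ± 0.10 (limma adjusted p = 7.79e-05). Its arrays read 10.91, 10.91 and 10.63 at 2 h and 10.11, 9.93 and 10.21 at 6 d, without overlap.

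Insulin signalling genes had no common direction, with 9 of 48 higher and 11 lower, or 12 and 12 after cyclic loess. Irs1, the main insulin receptor substrate in fat cells, measured 12.66, 12.73 and 12.85 in control, 10.99, 10.94 and 11.10 at 2 h and 11.71, 12.18 and 11.81 at 6 d. It rose by 0.89 ± 0.11 between the times and remained below every control array at 6 d. Socs3, an inhibitor of insulin and cytokine signalling, rose by 1.21 and Trib3, which inhibits AKT, by 1.29, while the adaptor Grb14 fell by 1.27. Lipolysis and lipid droplet genes had 3 of 25 higher and 9 lower. Pnpla2, the first lipase of triglyceride breakdown, measured 11.38, 11.26 and 11.38 at 2 h and 12.49, 12.44 and 12.47 at 6 d, a rise of 1.13 ± 0.07 (limma adjusted p = 3.99e-08). G0s2, the inhibitor of that lipase, read 13.42, 13.54 and 13.15 in control, 10.60, 10.24 and 10.19 at 2 h and 11.32, 11.34 and 11.02 at 6 d. G0s2 was thus higher at 6 d than at 2 h by 0.88 and still 2.14 below control. Mgll, the lipase of the last step, fell by 2.03.

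**Figure D4:**
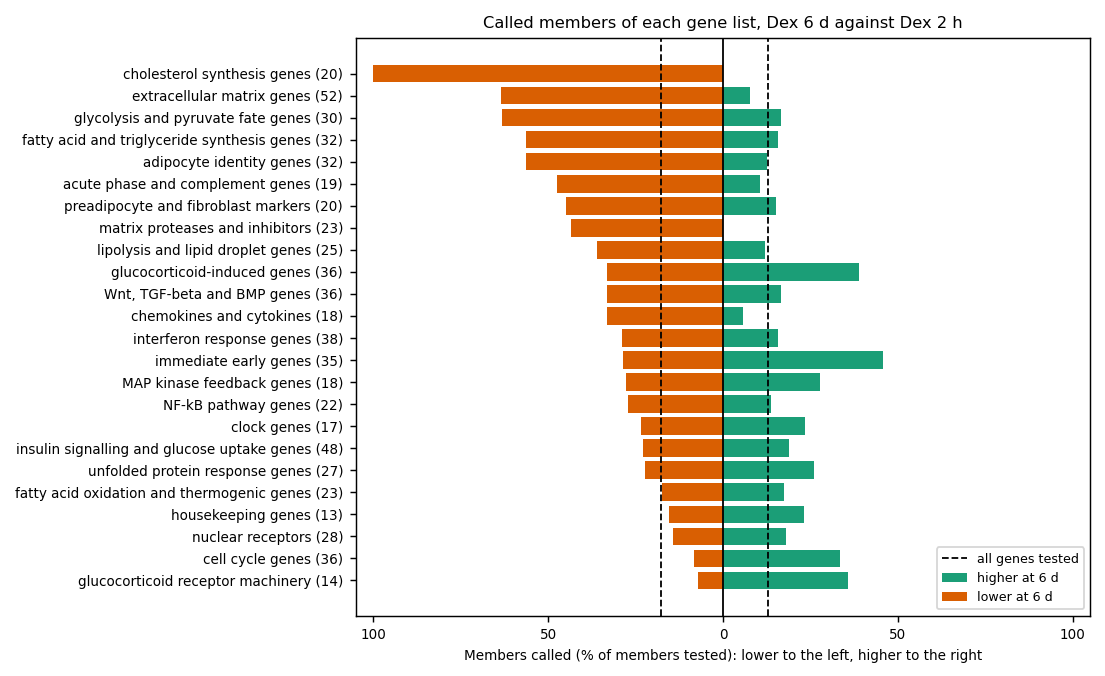
Percent of the tested members of each gene list that were called lower (left) or higher (right) at 6 d than at 2 h of Dex; dashed lines mark the share over all genes tested (17.7% lower and 12.8% higher). All 20 cholesterol synthesis genes are on the left. Cell cycle, immediate early and receptor machinery genes have more members on the right. So, by small margins, do the glucocorticoid-induced, unfolded protein response, nuclear receptor and housekeeping lists.

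The glucocorticoid-induced genes split. Of 36 tested, 14 were called higher at 6 d than at 2 h and 12 lower, with a median of -0.02, and with each array centred on its median 12 were higher and 13 lower. Against control, 25 were called higher at 2 h and 24 at 6 d, the members being chosen as genes that glucocorticoids are known to induce. Fkbp5, which encodes a chaperone of the receptor complex, measured 8.86, 8.97 and 9.12 in control, 12.77, 12.68 and 12.75 at 2 h and 13.03, 12.89 and 13.12 at 6 d. Both Dex groups were far above control, and the difference between them was 0.28 ± 0.08 (adjusted p = 0.0159). That call was lost without Dex 2 h replicate 2 (0.0664), Dex 6 d replicate 1 (0.0509) or Dex 6 d replicate 3 (0.0659). Tsc22d3, whose product restrains inflammatory transcription factors, rose by 0.41 from 2 h arrays of 12.57, 12.55 and 12.60. Per1, a clock repressor, was 1.67 above control at 2 h and 1.66 above it at 6 d.

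Other glucocorticoid-induced genes were lower at 6 d than at 2 h. Dusp1, a phosphatase that switches off MAP kinases, measured 8.58, 8.92 and 8.49 in control, 11.38, 11.20 and 11.33 at 2 h, 9.49, 9.43 and 9.68 at 24 h and 8.98, 8.91 and 9.01 at 6 d. Dusp1 fell by 2.34 ± 0.11, and its difference from control at 6 d was 0.30 (adjusted p = 0.064). Cebpd, an early adipogenic transcription factor, measured 8.44, 8.56 and 8.33 in control, 12.56, 12.51 and 12.42 at 2 h and 11.45, 11.37 and 11.35 at 6 d, and fell by 1.11 while staying far above control. Outside the glucocorticoid-induced list, Gadd45g, a stress response gene, fell by 1.98, and Serpina3n, a protease inhibitor of the acute phase, by 1.85. Of the receptor machinery, Nr3c1 was 0.99 below control at 2 h and 0.89 below it at 6 d, and the difference between the times was 0.10 (adjusted p = 0.444). Hsd11b1, the enzyme that regenerates active glucocorticoid in fat, measured 13.07, 12.98 and 12.85 at 2 h and 11.14, 11.07 and 11.01 at 6 d, a fall of 1.89 ± 0.10.

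Immediate early genes had 16 of 35 members higher at 6 d and 10 lower, with a median of 0.45. Among the higher members, Gadd45a and Dusp4 had been below control at 2 h. Gadd45a measured 11.04, 10.99 and 11.19 in control, 8.24, 8.35 and 8.54 at 2 h and 9.72, 9.61 and 9.70 at 6 d, so it rose by 1.30 and stayed below control. Dusp4, another MAP kinase phosphatase, rose by 1.90 from 2 h arrays of 4.90, 4.67 and 4.52, near background, to 6.56, 6.90 and 6.34. Smad6, an inhibitor of BMP signalling, read 9.07, 9.31 and 8.89 in control, 6.88, 6.94 and 6.84 at 2 h and 8.90, 9.01 and 8.56 at 6 d, a rise of 1.94 ± 0.15. Wnt, TGF-beta and BMP genes as a list had 6 of 36 higher and 12 lower.

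Cell cycle genes had 12 of 36 members higher and 3 lower, with a median of 0.29. Top2a, a topoisomerase of dividing cells, measured 5.92, 5.95 and 5.87 at 2 h and 6.88, 8.00 and 7.09 at 6 d, replicate 2 being the highest. Without Dex 6 d replicate 2, the array with the larger 3′ to 5′ difference, Top2a rose by 1.07 in place of 1.41, and the list had 9 higher and 3 lower with a median of 0.08. Birc5, a mitotic survivin, read 5.52, 6.79 and 5.25 at 6 d and was not called (0.76, adjusted p = 0.0657). The Birc5 difference was 0.29 (adjusted p = 0.234) without Dex 6 d replicate 2 and 1.06 (adjusted p = 0.0142) without Dex 6 d replicate 3. The part of that array's RNA quality in these values was not tested. Of the clock genes, 4 of 17 were higher and 4 lower, without the same array 2 were higher and 6 lower, and with median centring 2 and 5. Gapdh, often used as a reference gene, fell by 1.10 from 14.58, 14.45 and 14.44 to 13.73, 12.70 and 13.76, and by 0.75 (adjusted p = 0.0071) without that array.

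Acute phase and complement genes had 2 of 19 higher and 9 lower. Cp, a copper carrier, measured 11.49, 11.30 and 11.55 at 2 h and 13.16, 13.28 and 13.17 at 6 d, a rise of 1.75 ± 0.08 (adjusted p = 3.00e-09), and Itih4 rose too, whereas the secreted phospholipase Pla2g2e fell by 3.25. Lcn2, a carrier of bacterial iron chelators, was highest at 24 h (11.32, 11.38 and 11.17). The 2 h and 6 d arrays of Lcn2, 6.94, 6.73 and 7.47 against 7.72, 6.62 and 7.87, overlapped, with a difference of 0.36 (adjusted p = 0.334) that was 0.75 (adjusted p = 0.00546) without Dex 6 d replicate 2. Over all genes tested, 12.8% were called higher and 17.7% lower. In the remaining lists, counts of higher and lower members were 3 and 6 of 22 for NF-kB pathway genes. They were 6 and 11 of 38 for interferon response genes and 1 and 6 of 18 for chemokines and cytokines. They were 7 and 6 of 27 for the unfolded protein response, 5 and 4 of 28 for nuclear receptors and 4 and 4 of 23 for fatty acid oxidation and thermogenic genes. They were 5 and 5 of 18 for MAP kinase feedback genes and 5 and 1 of 14 for the receptor machinery. Brown adipocyte markers had 0 and 3 of 6 and housekeeping genes 3 and 2 of 13. Called either way were 32.1% of nuclear receptors and 34.8% of fatty acid oxidation and thermogenic genes, near the 30.5% over all genes tested. With each array centred on its median, the unfolded protein response had 6 and 7, MAP kinase feedback genes 4 and 5 and housekeeping genes 2 and 3, so no direction is given for these lists. Of macrophage and leukocyte markers only Cd14 was called, at 1.04, among 4 tested, and of endothelial and muscle markers only Des, lower, among 4.

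The change from 2 h to 6 d under TNF was subtracted from that under Dex to ask whether the agents differed, since both were followed over the same times. On all 21 arrays this difference was called for 1001 of 12156 genes (8.23%), 611 higher (5.03%) and 390 lower (3.21%) under Dex, and its median over all genes was 0.19. TNF 6 d replicate 2 stood apart, and without it, on 20 arrays, the difference was called for 2679 (22%), 1167 higher (9.6%) and 1512 lower (12.4%), with a median of 0.01. Without TNF 6 d replicate 1 it was called for 1570, and after cyclic loess of all 21 arrays for 1614, 746 higher and 868 lower. TNF 2 h replicate 2, which also had a larger 3′ to 5′ difference, stays among the 20 arrays. With only that array left out of the 21, the difference was called for 806, 411 higher and 395 lower. Values in this and the next paragraphs are from the 20 arrays, and those of all 21 follow where they change a count by more than 1.5 times. From 2 h to 6 d of TNF itself, 1303 genes (10.7%) rose and 1261 (10.4%) fell, against 481 (3.96%) and 1260 (10.4%) on 21 arrays. For 28 of 52 matrix genes the difference was called lower under Dex and for 0 higher, with a median of -0.81, and under TNF itself 11 rose and 5 fell. On 21 arrays it was called lower for 16 matrix genes and higher for 0, and under TNF itself 1 matrix gene rose and 6 fell, so no direction under TNF is given. Lum measured 11.20, 11.05 and 12.25 at 2 h of TNF and 11.85, 10.38 and 12.59 at 6 d, and its change differed by -5.22 ± 0.54 (limma adjusted p = 6.34e-07). For 17 of 20 cholesterol genes the difference was called lower under Dex, although 9 also fell under TNF. On 21 arrays it was called lower for 7. Preadipocyte and fibroblast markers had 12 of 20 lower and 0 higher in the difference, and 5 lower on 21 arrays. Under TNF itself 8 of them rose and 0 fell, or 5 and 0 on 21 arrays.

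The reversed genes were then read under TNF. Of the 36 genes that were below and then above control under Dex, 14 rose and 5 fell from 2 h to 6 d of TNF, and the difference between the agents was called for 26. Of the 46 in the other direction, 9 rose and 17 fell under TNF, and the difference was called for 37. On 21 arrays the first direction had 9 rising, 4 falling and 22 called differences, and the second had 2, 17 and 23. These genes were chosen on Dex arrays that also enter the difference, and all were called between 2 h and 6 d of Dex. A share of called differences above the 22% of all genes on 20 arrays is therefore partly set by the choice. It does not show that the reversal is particular to Dex. Ppargc1b rose under both agents, by 2.10 under Dex and 1.82 under TNF, with a difference of 0.28 (adjusted p = 0.546). Id3 differed by 2.42 and Plod2 by -3.98.

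Some genes went opposite ways. The change from 2 h to 6 d was called with opposite signs under the agents, and the difference was called too, for 449 genes on 20 arrays and for 98 on 21, of which 88 were in both. Irf1, a transcription factor of the interferon response, measured 8.25, 8.38 and 8.43 at 2 h of Dex and 10.08, 10.04 and 10.27 at 6 d. Under TNF it measured 13.82, 13.92 and 13.88 at 2 h and 10.75, 9.80 and 10.61 at 6 d. Irf1 thus rose by 1.78 and fell by 3.19, on opposite sides of the control arrays (10.21, 10.10 and 10.46) at 2 h. Snai2, described above, measured 8.57, 9.08 and 8.71 at 2 h of TNF and 10.85, 10.77 and 10.62 at 6 d, a rise of 1.95 against its fall of 2.92 under Dex. Apoc3 measured 7.71, 7.61 and 6.97 at 2 h of TNF and 4.86, 4.27 and 4.71 at 6 d, near background, against its rise under Dex. The complement genes C1s1 and Cfb, Plac8, and Pltp, a phospholipid transfer protein, fell under Dex and rose under TNF, while Trim47, the transporter Abcc4 and the endoplasmic reticulum turnover receptor Retreg1 rose under Dex and fell under TNF.

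**Figure D5:**
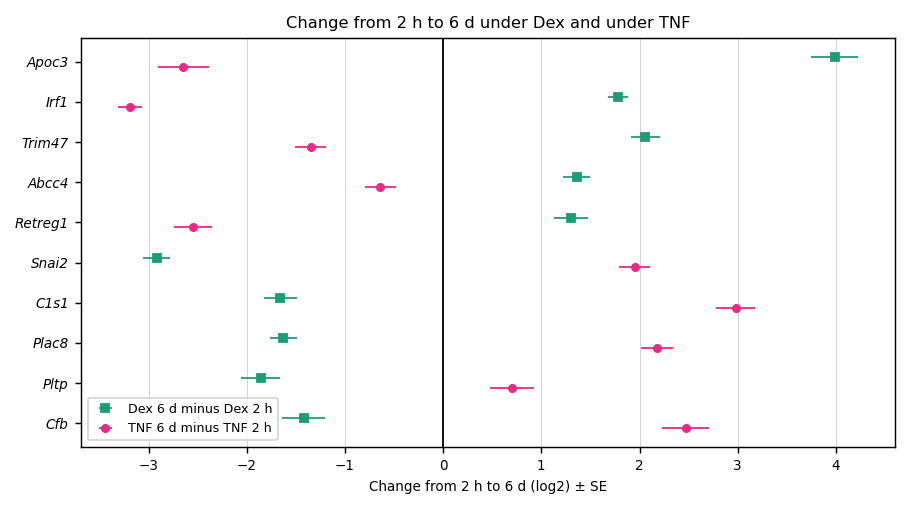
Log2 change from 2 h to 6 d, with its SE, under Dex and under TNF for 10 genes with opposite changes, fitted on 20 arrays without TNF 6 d replicate 2. Apoc3, Irf1, Trim47, Abcc4 and Retreg1 lie above 0 under Dex and below it under TNF, and Snai2, C1s1, Plac8, Pltp and Cfb the other way.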

How the data were processed

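Expression in 21 samples of 3T3-L1 cells was measured on Affymetrix mouse arrays with biotinylated cRNA, 3 samples in each of 7 groups. The authors' deposited values were normalised by RMA, per the submitters' processing notes, with no version given, and were read as log2 levels from that method and their range up to 15.06. They were used as deposited. Of 45101 probe sets, 34958 name a single gene, 932 several and 9211 none, by the platform annotation. Of the first, 34754 symbols were updated through RefSeq and 204 were kept. A gene took its probe set with the highest mean over all arrays, and of 18194 genes, 11777 passed the brightness filter and 6417 did not.

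The main model was a mean per group over the 12 control and Dex arrays in limma (version 3.58.1, with R 4.3.3 and version 1.17.8 of data.table) with a trend in the moderation, 8 residual and 5.76 prior degrees of freedom, and Benjamini-Hochberg adjustment. Dex and TNF were compared over time in a fit of all 21 arrays (14 residual degrees of freedom) and of 20 (13). TNF stayed out of the main model because 1 of its arrays was known to stand apart. Figures and promoters used Python 3.11.15, pandas 2.3.3 and matplotlib 3.10.9. Arrays have no sequencing depth, and their number limits the precision.

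The comparison, the gene lists and the rules were chosen with earlier results of these data known. Named genes are the 15 highest and 15 lowest called genes whose arrays do not overlap, up to 20 reversed genes in each direction by the smaller change, up to 5 called members of each list by size, a set of known glucocorticoid and adipocyte genes, and up to 5 genes in each direction that changed oppositely under TNF. Genes named outside this rule were chosen after their values were seen. No arrays held identical values. In data simulated for the comparison of 6 d with 2 h over 11777 genes, with 50 genes changed at each size, 62% of log2 changes of 0.5, 94% of 1 and 100% of 2 and 4 were recovered, and 4.81% of calls were false. The simulated noise was normal and independent between genes and arrays, and few genes were changed. The 4.81% is therefore not the share of false calls on the real arrays. Other filters, scalings, samples, probe set means and moderation settings, and leaving out each array, were also run.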

Additional observations from a re-analysis of the deposited data

Results flagged for a closer look

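The change from 2 h to 6 d differed between Dex and TNF, with opposite signs and calls under both agents, for 10 genes picked by size. On all 21 arrays the Dex change minus the TNF change was 6.81 for Apoc3, 5.26 for Irf1, 4.41 for Retreg1, 3.76 for Trim47 and 2.66 for Abcc4, which rose under Dex and fell under TNF. It was -4.88 for Snai2, -3.97 for C1s1, -3.51 for Plac8, -3.43 for Cfb and -3.31 for Pltp, which fell under Dex and rose under TNF. Without TNF 6 d replicate 2 the differences were 6.64 for Apoc3, 4.97 for Irf1, 3.84 for Retreg1, 3.40 for Trim47 and 1.99 for Abcc4. They were -4.87 for Snai2, -4.64 for C1s1, -3.82 for Plac8, -3.89 for Cfb and -2.56 for Pltp. Each kept its sign. Pltp measured 10.57, 13.02 and 11.01 on the TNF 6 d arrays, the second of these being the array that stood apart. The part of that array's RNA quality in the values was not tested.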

How the results depend on the processing

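From 2 h to 6 d of Dex, 3597 genes were called. The count was 908 with all 21 arrays in the fit and 2964 without TNF 6 d replicate 2 in it, 5647 with array weights and 574 with a 2-fold limit. It ranged from 2719 to 4085 when each array was left out in turn. The 82 reversed genes became 12 with all 21 arrays, 228 with array weights and 3 with the 2-fold limit, and ranged from 52 (without control replicate 1) to 93 (without Dex 6 d replicate 2). The difference between Dex and TNF, 1001 genes on 21 arrays, became 1614 after cyclic loess and 5767 with array weights, and ranged from 701 to 2679 as arrays were left out. Of its calls, 61.0% were higher under Dex, against 43.6% without TNF 6 d replicate 2, 46.2% after cyclic loess and 72.5% without TNF 6 d replicate 1. The cause of these shifts was not tested. No filter, median centring and the other moderation settings kept all 3 counts within 1.5 times. The stricter filter and the mean of probe sets, run for the first and second counts, did so too. Genes that were never called changed sign: Lpl was -0.06 with the mean of probe sets, -0.02 with median centring and -0.01 without Dex 2 h replicate 3 or Dex 6 d replicate 1 (0.04 at most, without Dex 6 d replicate 3). Per1 was 0.00 after cyclic loess and ranged from -0.07 to 0.09 as arrays were left out. Pparg was 0.01 after cyclic loess or with array weights and ranged from -0.07 to 0.05 as arrays were left out. With the replicate number as a block, 3764 genes were called, 95 were reversed and 997 differed between the agents. Same-numbered samples of Dex 2 h and 6 d correlated in their deviations with r of 0.179, 0.0248 and 0.0883, those of control and Dex 2 h with 0.34, -0.181 and 0.317, and those of control and Dex 6 d with 0.395, -0.265 and -0.254. Not every pair passed 0.1, so the numbers were not taken to pair the samples. Signal near background limits what can be said of Ang3, Ang4, Ibsp, Synm, Map3k8, Dusp4 and Birc5 at 2 h and of Ccl11, Sema3g, Inhbb, S100a8, Apoe and Timp3 at 6 d.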
